A study of Mus musculus with 20 samples.

Results

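The effect of Spdef loss on the adult small intestine was measured on 4 of the 20 two-colour arrays of the series, chosen because their labels name this tissue and stage. These 4 arrays carried 2 pairs of RNA pools. In each pair, a pool from Spdef-/- mice (KO) shared an array with a pool from wild type mice (WT), and a second array repeated the pair with the dyes exchanged. All mice were 30 days old, each pool combined whole small intestines of 2 to 3 littermates, and the sources used here do not give the strain, the sex or the design of the allele. The rest of the series compared KO with WT pools in adult colon (30 days, 6 arrays), fetal small intestine (E18.5, before birth, 6 arrays) and fetal colon (E18.5, 4 arrays). Values below are log2 ratios of KO over WT, averaged over an array and its dye swap to give 1 value per pair; errors are limma standard errors with n = 2 pairs, adjusted p-values follow Benjamini and Hochberg over all 17074 genes tested, and the threshold was 0.05. The spread behind each error and p-value was pooled over 9 replicates from the 4 groups of the series, not measured between these 2 pairs alone. It may understate the spread between them. Nothing in the labels says whether the pairs came from separate litters, so the p-values describe spread among pools, not among litters.

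Spdef is a transcription factor of the ETS family made in secretory cells of the gut epithelium, and it acts downstream of Atoh1, the factor that commits progenitors to the secretory fate. Goblet cells secrete mucins and trefoil peptides, and Paneth cells, which sit at the crypt base, secrete lysozyme and alpha-defensins against bacteria. Knockout studies in mice linked Spdef to the maturation of both cell types. Enteroendocrine cells, which release gut hormones, and tuft cells, which sense luminal content, are the other secretory types of the epithelium. ETS factors bind DNA around a short GGA core, and Spdef is known to prefer GGAT over the GGAA core favoured by most of the family.

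The arrays matched their label. Sis and Fabp2, genes of absorptive enterocytes, lay at 15.51 to 16.05 and at 16.56 to 16.87 in KO channels, against 16.09 to 16.34 and 17.05 to 17.23 in WT channels (log2 intensity after scaling between arrays). Hoxd13, a gene of the distal colon, was not well above background on any of the 4 arrays. Per channel, 51.3% to 66.6% of the 41174 probes gave a signal well above background, and precision is limited by the 2 pairs. Elsewhere in the series, the arrays of one slide went against their labels. On it, fetal small intestine pair 3 had high Hoxb13 and low Apoa4, and fetal colon pair 1 had low Hoxb13 and high Apoa4. The array of adult colon pair 1 differed from its own dye swap in mean level (r = 0.737 across genes, against 0.996 to 0.999 for the other pairs). These pools helped to set the spread used by every test, so counts are given with and without them.

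Spdef itself was at 8.06, 8.54, 7.13 and 7.31 in the KO channels of pair 1, its swap, pair 2 and its swap, against 9.88, 10.07, 9.95 and 10.21 in the WT channels (log2 intensity). The KO channel was the lower one on 4 of 4 arrays, which held for 16.1% of all genes tested, and the genotypes did not overlap. The log2 ratio was -1.68 in pair 1 and -2.86 in pair 2, with a mean of -2.27 ± 0.43 (adjusted p = 0.0957), which missed the threshold.

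**Figure D1:**
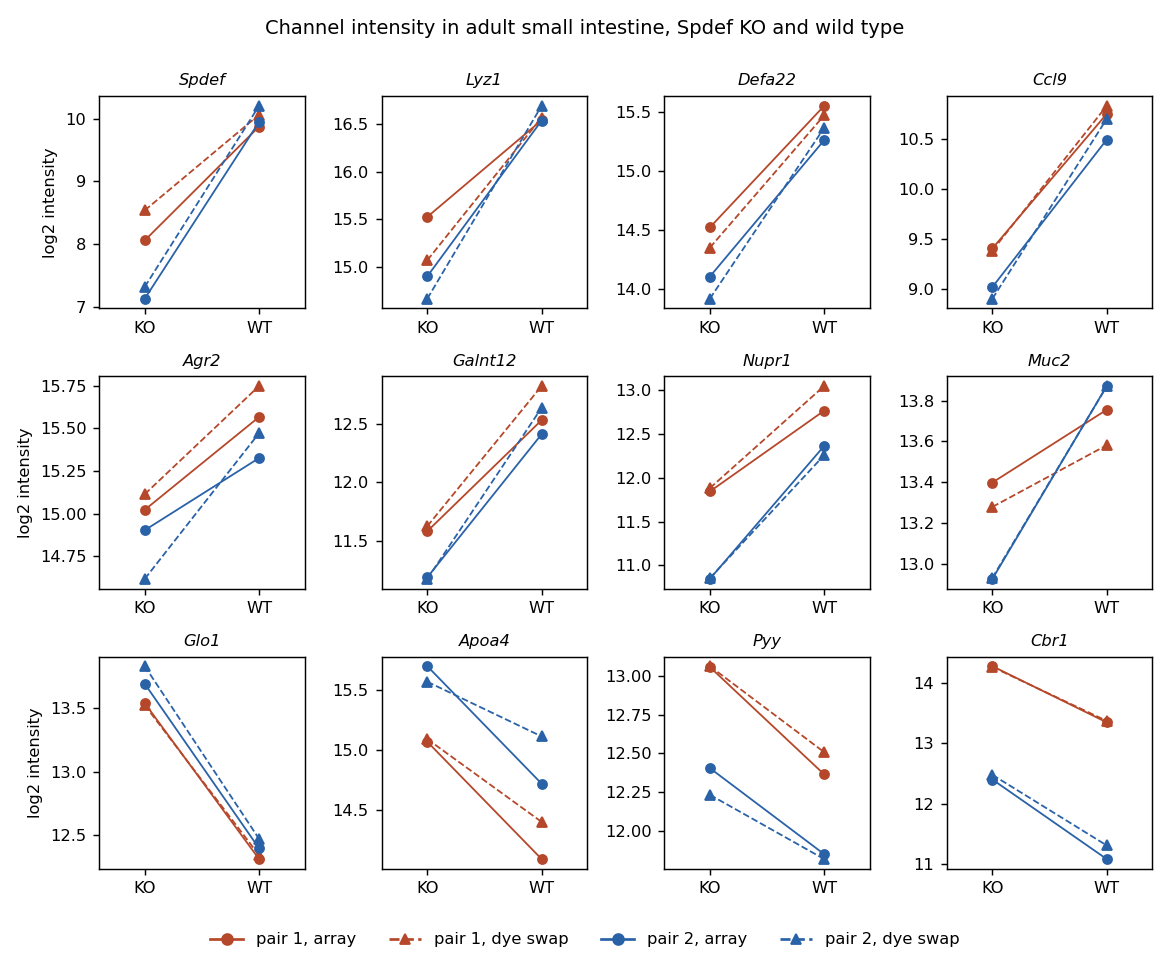
Log2 channel intensity of 12 genes in adult small intestine, KO on the left and WT on the right of each panel, with 1 line per array (solid, array; dashed, dye swap; red, pair 1; blue, pair 2). Lyz1, Defa22, Ccl9, Agr2, Galnt12 and Nupr1 were lower in KO and Glo1, Apoa4, Pyy and Cbr1 higher in KO on all 4 arrays; vertical axes differ between panels and do not start at 0.

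Across the genome, 68 genes passed the threshold, which is 0.398% of those tested. Of these, 40 were lower in KO (0.234%) and 28 were higher (0.164%). Named genes made up 36 of the lower and 14 of the higher ones, and the other 18 carry clone or provisional names. All the named genes that passed had the same sign on 4 of 4 arrays, as did 27.6% of all genes tested. A dye swap repeats the same pools, and a gene whose pairs disagree can hardly pass. The shared sign is therefore not separate evidence for the calls. The count moved with the pools that shared the fit: it was 27 without the slide whose profiles went against their labels and 34 without adult colon pair 1. With the 2 adult small intestine pairs fitted alone, which leaves 1 residual degree of freedom, limma called 0 genes, and 1832 had an unadjusted p under 0.05.

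Lysozyme and alpha-defensins of Paneth cells fell in KO, while most of the list did not pass. Of 41 Paneth list genes 32 were measured, and 10 of these fell and 0 rose, where 0.234% of all genes tested fell. Of the 10, 8 were alpha-defensins, whose probes can read several near-identical genes, so they are not independent members. The others were Lyz1 and Nupr1, and Nupr1 is also on the goblet list. On all 4 arrays 19 were lower, against 16.1% of all genes tested. In pair 1, 8 of the 32 lay above 0, and in pair 2 3 did, against 7565 and 8083 of the 17074 genes tested. The median log2 ratio of the list was -0.39 (-0.26 in pair 1 and -0.98 in pair 2), against -0.01 over all genes tested. The number that fell was 5 without the slide whose profiles went against their labels and 6 without adult colon pair 1. The list was drawn up with earlier results of these data known, so its direction is not independent evidence.

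Lyz1, the lysozyme specific to Paneth cells in the mouse gut, had log2 intensities of 15.53, 15.07, 14.90 and 14.67 in KO, against 16.54, 16.57, 16.54 and 16.69 in WT. Its highest KO value was about 1 log2 unit below its lowest WT value. It fell 2.92-fold (log2 -1.54 ± 0.15, adjusted p = 0.00691), by 1.26 in pair 1 and 1.83 in pair 2. Its probe lies at chr10:116692308-116692367 (mm8). Lyz2, the myeloid lysozyme, fell by 0.90 ± 0.08 (adjusted p = 0.00328) on the brightest probe, which gave -0.80 and -0.99 in the pairs, whereas the other probe kept for this gene gave -0.05.

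The alpha-defensins are peptides that Paneth cells store in granules and that Mmp7 cleaves to their active form in mice. Of the 9 defensin genes measured on the list, 8 fell. The exception, Defcr-rs10, had -0.02 in pair 1 and -0.35 in pair 2 (adjusted p = 0.608). Defa21 was at 16.28, 15.95, 16.20 and 15.60 in KO, against 17.87, 17.88, 17.84 and 17.78 in WT, and the genotypes did not overlap. It had the largest drop among the genes past the threshold (log2 -1.84 ± 0.25, adjusted p = 0.0277). Defa22 was at 14.52, 14.35, 14.11 and 13.92 in KO, against 15.55, 15.47, 15.26 and 15.37 in WT, a fall of 2.28-fold (log2 -1.19 ± 0.07, adjusted p = 0.000382). Defa20, Defa3, Defa1, Defa5, Defa24, Defa23 and Defa39 fell by 1.62, 1.54, 1.41, 1.39, 1.35, 1.32 and 1.07 on the log2 scale; Defa39 is not on the Paneth list and was named because it passed. The defensin genes of mouse chromosome 8 are near-identical copies, so a probe can read several of them and these values are not independent.

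Other Paneth genes were lower on all 4 arrays and missed the threshold. Mmp7 had log2 ratios of -0.76 and -0.94 (mean -0.85 ± 0.16, adjusted p = 0.0856). Itln1, an intestinal lectin, had -0.93 and -1.49 (mean -1.21 ± 0.54, adjusted p = 0.426), and Pla2g2a, a secreted phospholipase with antibacterial activity, had -0.94 and -1.03. The pairs disagreed on Ang4, an antimicrobial ribonuclease, with 0.70 in pair 1 and -1.32 in pair 2. Sox9, a transcription factor needed to form Paneth cells, had 0.04 and -0.42. In whole tissue, fewer cells of a type and less RNA per cell cannot be told apart.

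The goblet list gave 7 genes that fell and 0 that rose among 42 measured of 45, where 0.234% of all genes tested fell, with a median of -0.22 (-0.16 and -0.31 in the pairs); without small intestine pair 2, 2 fell. Like the Paneth list, the goblet list was drawn up with earlier results of these data known, so its direction is not independent evidence. Agr2, a disulfide isomerase needed to fold mucins, was at 15.02, 15.11, 14.90 and 14.62 in KO, against 15.57, 15.75, 15.33 and 15.47 in WT. It fell by 0.62 ± 0.09 (adjusted p = 0.0441), by 0.59 and 0.64 in the pairs. Galnt12, which starts O-linked glycans on mucins, was at 11.58, 11.62, 11.18 and 11.17 in KO, against 12.53, 12.83, 12.41 and 12.64 in WT. It fell 2.32-fold (log2 -1.21 ± 0.12, adjusted p = 0.00738), and of 45 mucin glycosylation genes measured it was the only one to pass. Nupr1, a small nuclear protein induced by stress that stands on both the goblet and the Paneth list, was at 11.84, 11.88, 10.85 and 10.86 in KO, against 12.77, 13.05, 12.36 and 12.26 in WT, a fall of 2.38-fold (log2 -1.25 ± 0.12, adjusted p = 0.00617).

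The chemokine Ccl9 was at 9.40, 9.38, 9.02 and 8.90 in KO, against 10.75, 10.83, 10.49 and 10.70 in WT. It fell by 1.52 ± 0.20 (adjusted p = 0.0225). Its paralog Ccl6 had log2 ratios of -1.54 and -1.76 and missed the threshold (mean -1.65 ± 0.33, adjusted p = 0.106). Tpsg1, a membrane-anchored tryptase, fell by 1.17, Hgfac, a serine protease that activates hepatocyte growth factor, by 1.04, and Rap1gap, which switches off the GTPase Rap1, by 1.02. The second probe kept for Rap1gap gave -0.09. Rapgef3, which switches Rap1 on in response to cyclic AMP, fell by 0.65. Creb3l4, a transcription factor of secretory cells, had -1.85 and -2.67 and missed the threshold (mean -2.26 ± 0.41, adjusted p = 0.0853).

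The abundant goblet products did not pass. Muc2, the main secreted mucin of the gut, was at 13.40, 13.28, 12.93 and 12.93 in KO, against 13.75, 13.58, 13.87 and 13.87 in WT. It was lower in KO on all 4 arrays, with log2 ratios of -0.33 and -0.94 (mean -0.64 ± 0.20, adjusted p = 0.262), and its 4 kept probes ranged from -0.64 to -0.01. Tff3, a trefoil peptide, had -0.16 and -0.21 (adjusted p = 0.533). Clca1, a protease of the mucus layer, had 0.99 in pair 1 and -0.13 in pair 2. Foxa3, a transcription factor of goblet cells, had -0.16 and -0.59, and Atoh1 had 0.02 and -0.31; neither passed. Of 34 Notch and secretory fate genes and 28 stem cell and Wnt genes measured, 0 passed in either direction, and Lgr5 and Olfm4, markers of crypt stem cells, had mean log2 ratios of -0.03 and 0.02. All 58 genes on the ER folding list were measured and 0 passed, with a median of -0.08.

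The promoters of Lyz1, Defa22, Agr2, Ccl9 and Nupr1, genes that fell, are shown over 300 bases each that span the annotated start, 5′ to 3′, because they are the regions where an ETS core would be looked for first (RefSeq, GRCm38.p6). Capitals mark GGAT on either strand, so that ATCC marks it on the opposite strand.
Lyz1 (chr10:117292819-117293118, minus strand): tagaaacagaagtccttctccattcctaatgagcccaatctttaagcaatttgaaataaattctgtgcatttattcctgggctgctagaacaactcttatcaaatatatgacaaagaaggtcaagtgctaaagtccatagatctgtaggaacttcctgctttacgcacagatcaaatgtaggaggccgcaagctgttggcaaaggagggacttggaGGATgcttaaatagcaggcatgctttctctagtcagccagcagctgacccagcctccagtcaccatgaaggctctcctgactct
Defa22 (chr8:21162027-21162326, plus strand): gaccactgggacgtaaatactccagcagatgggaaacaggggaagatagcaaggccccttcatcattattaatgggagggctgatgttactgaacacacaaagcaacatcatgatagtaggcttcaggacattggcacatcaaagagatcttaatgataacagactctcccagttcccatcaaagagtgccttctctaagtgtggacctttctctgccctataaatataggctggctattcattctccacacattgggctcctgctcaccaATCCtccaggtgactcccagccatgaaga
Agr2 (chr12:35992675-35992974, plus strand): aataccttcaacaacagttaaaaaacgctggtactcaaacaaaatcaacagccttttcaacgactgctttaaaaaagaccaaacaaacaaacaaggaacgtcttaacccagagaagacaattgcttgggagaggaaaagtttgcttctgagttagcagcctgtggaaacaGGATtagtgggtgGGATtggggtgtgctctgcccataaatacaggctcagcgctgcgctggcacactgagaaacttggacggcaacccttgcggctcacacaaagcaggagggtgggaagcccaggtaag
Ccl9 (chr11:83578587-83578886, minus strand): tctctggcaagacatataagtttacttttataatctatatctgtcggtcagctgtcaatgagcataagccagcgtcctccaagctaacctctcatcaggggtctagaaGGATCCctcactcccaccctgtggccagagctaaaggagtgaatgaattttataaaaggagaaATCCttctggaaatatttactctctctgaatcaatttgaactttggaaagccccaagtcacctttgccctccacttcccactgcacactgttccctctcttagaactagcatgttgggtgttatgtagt
Nupr1 (chr7:126625421-126625720, minus strand): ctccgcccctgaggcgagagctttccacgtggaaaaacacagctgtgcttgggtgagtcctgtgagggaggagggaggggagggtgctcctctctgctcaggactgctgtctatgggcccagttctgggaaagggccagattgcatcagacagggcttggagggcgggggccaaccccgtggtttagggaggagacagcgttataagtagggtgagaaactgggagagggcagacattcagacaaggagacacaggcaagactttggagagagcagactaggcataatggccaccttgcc
The Nupr1 sequence holds no GGAT on either strand. GGAT on either strand was in 25 of the 34 promoters matched to genes that fell (73.5%), against 76.3% of the promoters of all genes tested. These 34 promoters belong to 26 of the 40 genes that fell. Some genes have more than 1 and some defensin promoters are near-identical, so they are not independent. The longer CCGGAT or its reverse complement ATCCGG was in 1 of these 34 promoters (2.94%), against 8.92% of the promoters of all genes tested; none of the 5 sequences above holds it. Defensin promoters were compared base by base without alignment, so a shifted copy would also score low. The promoter of Defa21 matched that of Defa22 at every base, that of Defa20 matched it at 97.7%, and that of Defa23 at 28.3%. These are matches of letters, not binding sites.

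Fewer named genes rose. Apoa4, an apolipoprotein that enterocytes package with dietary fat, was at 15.07, 15.09, 15.70 and 15.57 in KO, against 14.08, 14.40, 14.72 and 15.11 in WT. Its KO value was the higher one on each array, although the lowest KO value lay just below the highest WT value. It rose 1.72-fold (log2 0.78 ± 0.09, adjusted p = 0.00932). Abca1, which exports cholesterol, fell by 0.54 (adjusted p = 0.0135). These were the only genes to pass among 38 lipid handling genes measured, where 0.398% of all genes tested passed. The median of that list was 0.01.

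Pyy, a hormone of L cells in the lower gut, was at 13.06, 13.06, 12.40 and 12.23 in KO, against 12.36, 12.51, 11.85 and 11.82 in WT. It rose by 0.55 ± 0.07 on the log2 scale (adjusted p = 0.0120), by 0.62 and 0.49 in the pairs. It was the only 1 of 32 enteroendocrine genes measured to pass, where 0.398% of all genes tested passed. Some other hormone genes were higher in KO on all 4 arrays without passing. Ghrl (ghrelin) had 0.71 and 0.93, the highest ratios of the list in both pairs. Cck (cholecystokinin) had 0.61 and 0.66, Gip (glucose-dependent insulinotropic peptide) 0.38 and 0.88, and Gcg (proglucagon) 0.36 and 0.69. In all, 24 of the 32 lay above 0 in pair 1 and 26 in pair 2, against 7565 and 8083 of the 17074 genes tested. The list median was 0.08, and 8 and 6 members lay below 0 in the pairs.

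Glo1, the glyoxalase that clears methylglyoxal, was at 13.54, 13.52, 13.69 and 13.83 in KO, against 12.31, 12.34, 12.40 and 12.47 in WT. It rose 2.40-fold (log2 1.26 ± 0.06, adjusted p = 9.96e-05), and its second probe gave 1.05. Cbr1, a carbonyl reductase, was at 14.28, 14.27, 12.40 and 12.48 in KO, against 13.35, 13.37, 11.09 and 11.31 in WT, and rose 2.11-fold (log2 1.08 ± 0.16, adjusted p = 0.0421). The pairs differed in its level more than the genotypes did. No other of the 34 genes measured on the glutathione and Nrf2 list passed, where 0.398% of all genes tested did. Gsta3 and Gstm1, which conjugate glutathione, had ratios of -0.52 and -0.81, and of -0.27 and -0.83.

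Genes past the threshold included several that lie near Spdef on chromosome 17. This chromosome held 13 of the 68, 1.56% of its 832 genes tested, against 0.335% of the 16130 genes placed on other chromosomes. Within 10 Mb of the Spdef probe 8 of 423 genes passed, 3 higher and 5 lower. Tpsg1, Msln (mesothelin) and Pgap6 lay 2.34, 1.97 and 1.59 Mb to one side, where Msln fell by 0.89 and Pgap6 by 0.88. Glo1 lay 2.88 Mb to the other side. Further out on that side, H2-Bl, a class I gene of the major histocompatibility complex, was at 16.76, 16.96, 16.49 and 16.75 in KO, against 12.14, 12.43, 13.94 and 14.23 in WT. Its ratios of 4.57 and 2.53 were the largest shared increase on the arrays but missed the threshold (adjusted p = 0.0644). Ubd, a ubiquitin-like protein encoded 9.36 Mb from Spdef, had -3.20 and -1.25 (adjusted p = 0.0556), and H2-M3, another class I gene, fell by 0.43. The labels give no strain, so the part of linked sequence in these values was not tested.

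**Figure D2:**
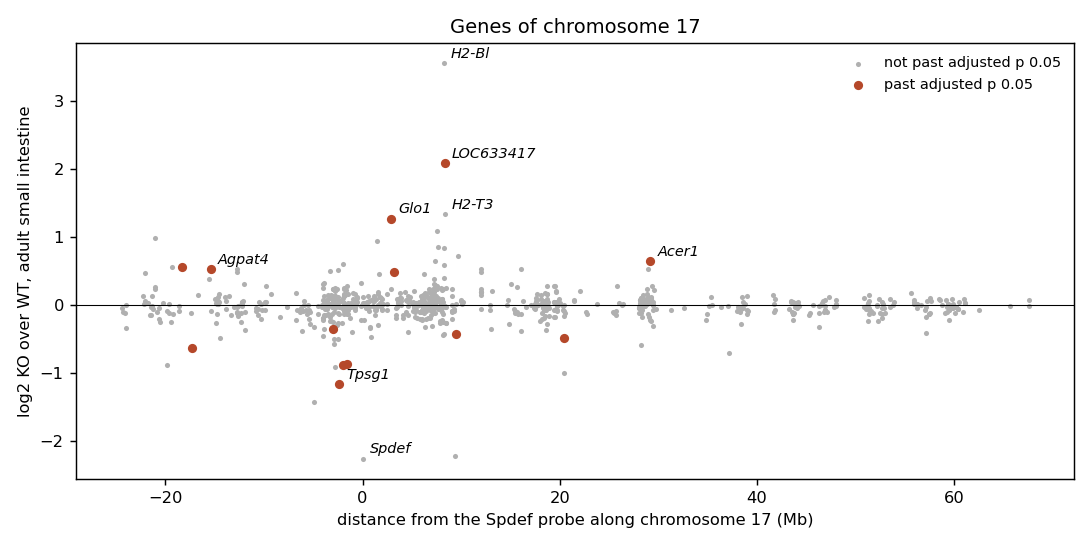
Mean log2 KO over WT of the genes of chromosome 17 (vertical axis) against distance from the Spdef probe in Mb (horizontal axis), with genes past adjusted p 0.05 in red. All 13 genes past the threshold lie within 30 Mb of the Spdef probe, and Glo1 and Tpsg1 lie on opposite sides of it.

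Some calls were on genes with no known role in this epithelium or with probes that disagreed. Prm1, a sperm protamine, fell by 1.75 ± 0.08 (adjusted p = 9.96e-05) on its brightest probe, whereas its second kept probe gave 0.03. Krtap19-1, a hair keratin-associated protein, fell by 1.48 ± 0.06 (adjusted p = 6.38e-05) on a single probe. Gapdh and Ywhaz rose by 0.52 and 0.55 on the brightest probe, while other kept probes gave values down to -0.07 and 0.06. The remaining named genes that fell were Cyp3a25, Vps39, Pou4f1, Npff, Gp1bb, Snhg3, Bbox1, Asph, Tspo2, Cxcl9 and Gfer, by 0.91 to 0.36. The remaining named genes that rose were Rmdn3, Abhd17a, Dnah8, Slc23a3, Agpat4, Acer1, Nt5e and the immunoglobulin gene Ighg, by 0.38 to 1.27.

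The pairs agreed poorly across all genes. Across 17062 genes with a value in both, pair 1 correlated with pair 2 at r = 0.157 (Spearman 0.297) and 60.8% of genes had the same sign, whereas an array correlated with its own dye swap at 0.662 in pair 1 and 0.672 in pair 2. With the genes past the threshold left out, r was 0.0907 over 16994 genes. These are descriptions across genes, which are not independent replicates. A change of at least 1 log2 unit was seen in 83 genes in pair 1 and in 103 in pair 2. Of these, 24 changed that much in the same direction in both (17 lower, 0.0996% of genes tested, and 7 higher, 0.041%), and 8 in opposite directions. Without the exocrine pancreas list r was 0.325, and 1 gene was left in opposite directions.

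**Figure D3:**
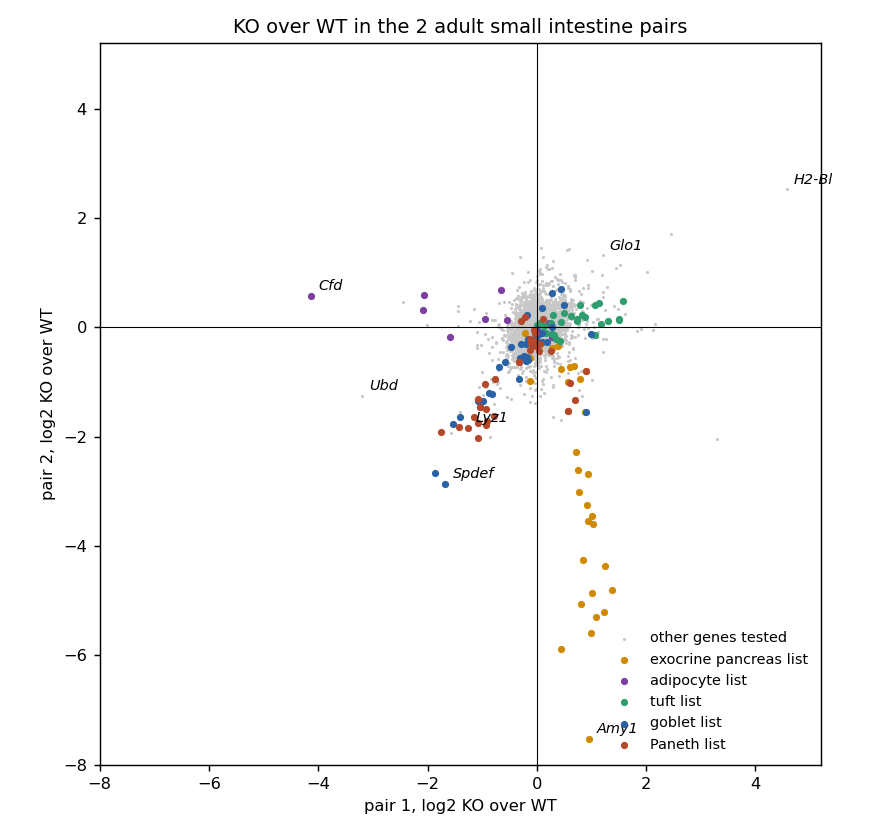
Log2 KO over WT of each gene in pair 1 (horizontal axis) and pair 2 (vertical axis), with gene lists in colour. Spdef lies low in both pairs, most pancreas genes lie above 0 in pair 1 and all of those measured below 0 in pair 2 (Amy1 at 0.96 and -7.53), and adipocyte genes such as Cfd lie low in pair 1 only.

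Pancreas genes had ratios of opposite sign in the pairs. Of 33 exocrine pancreas genes measured (of 40), 29 lay above 0 in pair 1, with a median of 0.80. In pair 2, 33 lay below 0, with a median of -2.60, and 0 passed. Of all 17074 genes tested, 7565 lay above 0 in pair 1 and 8987 below 0 in pair 2. Amy1, an amylase, was at 17.35 and 17.57 in KO against 16.23 and 16.75 in WT in pair 1, and at 7.97 and 7.79 in KO against 15.38 and 15.43 in WT in pair 2. Amy1 was high in both pools of pair 1 and in the WT pool of pair 2, and low in the KO pool of pair 2. The summed list intensity was 909149 and 979188 in KO against 646039 and 649102 in WT in pair 1, and 304712 and 304899 in KO against 463363 and 504307 in WT in pair 2. Bright members weigh most in this sum. The list also holds Zg16, a member of the goblet list (0.02 and -0.10 in the pairs), so the sum does not measure pancreas RNA alone. Cela3b (an elastase), Cpb1 (a carboxypeptidase), Prss3 (a trypsin), Reg2, Pnlip (pancreatic lipase) and Amy2a5 had ratios of 0.44 to 1.22 in pair 1 and of -4.87 to -5.89 in pair 2. On the Paneth list, Ang4 and Ang6, 2 ribonucleases, and Clps (colipase), which stands on the pancreas list too, were likewise above 0 in pair 1 (0.70, 0.61 and 0.57) and below 0 in pair 2 (-1.32, -1.01 and -1.53).

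Fat genes had the reverse signs. The 9 adipocyte genes measured had a median of -0.94 in pair 1 and 0.16 in pair 2. Cfd (adipsin) was at 9.12 and 9.43 in KO against 13.37 and 13.46 in WT in pair 1, and at 10.63 and 10.57 in KO against 9.96 and 10.07 in WT in pair 2. Adipoq (adiponectin) had ratios of -2.07 and 0.32 and Car3, a carbonic anhydrase of fat and muscle, -2.06 and 0.59. Sex-linked genes also differed between the pairs: Xist, expressed from the inactive X chromosome, had -0.30 in pair 1 and 1.28 in pair 2, and the Y-linked Eif2s3y had -0.13 and -1.10. Retnlb, a goblet cell peptide with antibacterial activity, had 0.90 and -1.54. S100g, a calcium-binding protein of the duodenum, was singled out after its values were seen, with 3.29 and -2.05. The part of pancreas, fat and sex in the other results was not tested.

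Tuft, B cell and lymphoid stroma genes were high in KO mainly in pair 1. The 23 T and NK cell genes measured were not, with medians of -0.0027 and -0.055 in the pairs. All 27 tuft list genes measured lay above 0 in pair 1 and 20 did in pair 2. Of all 17074 genes tested, 7565 and 8083 did. The tuft medians were 0.63 and 0.11, and 0 tuft genes passed. Dclk1, a microtubule-linked kinase that marks tuft cells, had 0.74 and 0.11, and Trpm5, a taste channel of these cells, 0.87 and 0.20. Several members are also expressed in blood cells. Ms4a1 (CD20 of B cells) was at 10.16, 9.93, 8.10 and 8.09 in KO, against 8.31, 7.75, 7.10 and 7.07 in WT, with ratios of 2.01 and 1.01 (adjusted p = 0.0648). Of 17 B and plasma cell genes measured, 16 lay above 0 in pair 1 and 13 in pair 2, and only Ighg passed. The 7 lymphoid stroma genes measured had medians of 0.93 and 0.36, with Ccl19, a chemokine of lymph node stroma, at 1.42 and 0.39. The summed intensity of the B and plasma cell list was 70598 to 110296 in KO and 72692 to 84851 in WT, so the genotypes overlapped. The sum was higher in KO on both arrays of pair 1 (110296 and 101694, against 72692 and 76650 in WT) and lower in KO on both arrays of pair 2 (75884 and 70598, against 84236 and 84851 in WT).

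**Figure D4:**
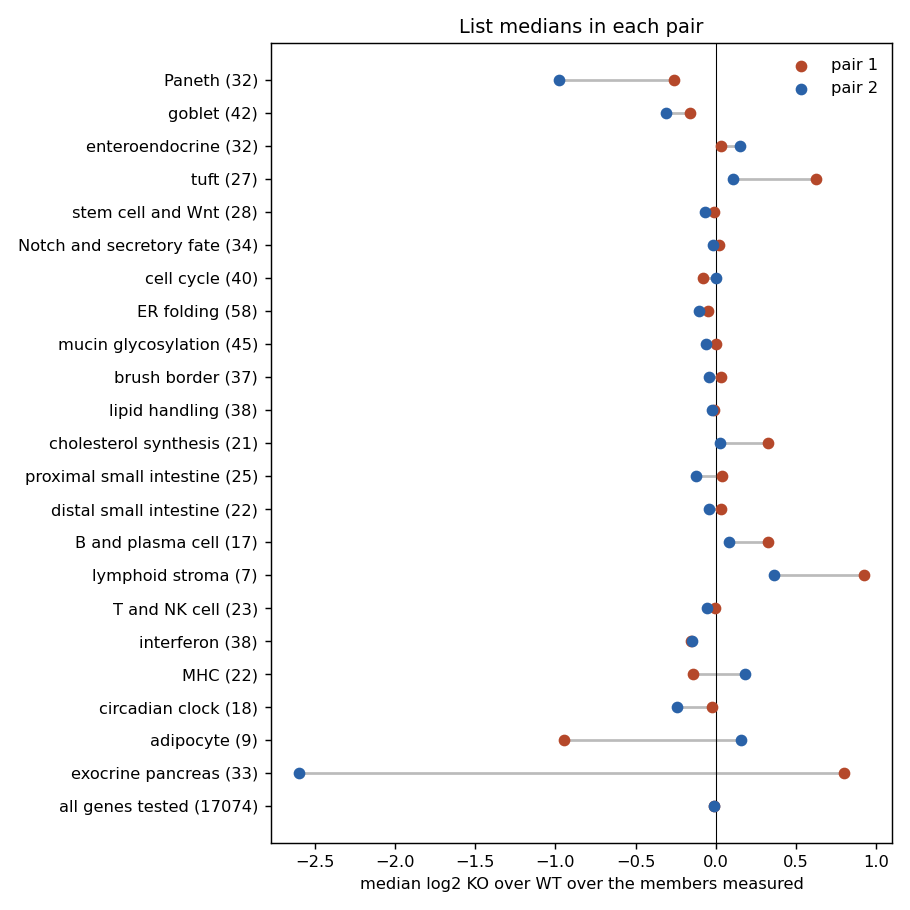
Median log2 KO over WT of each gene list in pair 1 (red) and pair 2 (blue), with the number of genes measured in parentheses. The Paneth, goblet and interferon medians lie below 0 in both pairs, the tuft, B cell and lymphoid stroma medians above 0 in both, and the pancreas and adipocyte medians on opposite sides of 0.

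No member of the interferon, clock and cholesterol synthesis lists passed in limma. Of 38 interferon genes measured, 9 lay above 0 in pair 1 and 10 in pair 2, against 7565 and 8083 of the 17074 genes tested. The interferon medians were -0.16 and -0.15. Iigp1, an immunity-related GTPase induced by interferon gamma, had -0.88 and -0.46, and Gbp3, a guanylate-binding protein, -0.55 and -0.49. Cxcl9, a chemokine induced by interferon gamma, was counted with the inflammation list and fell by 0.39 (adjusted p = 0.0359). Of the 18 clock genes measured, Dbp had -0.48 and -0.75 and Nr1d2 -0.38 and -0.54, while Arntl, which peaks in the opposite phase, had 0.11 and 0.38. Cholesterol synthesis genes, 21 of 21 measured, had medians of 0.32 and 0.03. The inflammation list had 2 genes of 48 that fell, Cxcl9 and Ccl9, where 0.234% of all genes tested fell, and a median of -0.13. The lists of myeloid cells, histocompatibility genes and cytochromes with other xenobiotic enzymes each had 1 gene that fell (Lyz2, H2-M3 and Cyp3a25), with medians of -0.02, -0.04 and -0.07. The lists for the cell cycle, colon, stomach, liver, T and NK cells, smooth muscle, neurons and glia, fibroblasts, endothelium, stress and the ETS family had 0 genes past the threshold in limma, with medians between -0.07 and 0.05. Brush border genes had a median of -0.01, with Fabp2 at -0.43 and -0.35 (adjusted p = 0.133).

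Set against adult colon, 27 genes (0.158%) differed in their response, and 18 did without the slide whose profiles went against their labels. Lyz1 fell by 1.54 in small intestine and was at 0.28 in colon, a difference of -1.82 ± 0.20 (adjusted p = 0.0137); without adult colon pair 1 it was -1.80 (adjusted p = 0.0906). Within the slide that held small intestine pair 2 and colon pair 2, the difference was -2.10. Defa20 differed by -1.77 ± 0.16 (adjusted p = 0.00607), and -1.88 within that slide. Adult colon had little alpha-defensin signal to lose, going by Defa22, at 6.94 to 7.16 in KO and 6.92 to 7.11 in WT channels there. Hoxd13, not well above background in small intestine, was at 6.94 to 7.04 in that tissue. The defensin differences therefore do not show that colon defensin genes responded otherwise. Mmp7 was at -0.85 in small intestine and 2.91 in colon, a difference of -3.77 ± 0.20 (adjusted p = 0.000491). Akr1c21, a steroid reductase, was at 0.04 in small intestine and 4.29 in colon. Its small intestine level is not given here, so its ratio there may be set near background. Agr2 had -0.62 in small intestine and -0.56 in colon, and its difference did not pass (adjusted p = 0.932). Nupr1 had -1.25 in small intestine and -2.21 in colon, and its difference did not pass (adjusted p = 0.0781).

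Against fetal small intestine 44 genes (0.258%) differed, but 0 did in limma without the slide whose profiles went against their labels, where 1094 had an unadjusted p under 0.05. Apoa4 was at 0.78 in adult and -0.24 in fetal tissue, a difference of 1.02 ± 0.12 (adjusted p = 0.0317), or 0.83 without that slide (adjusted p = 0.193). Defa22 was at -1.19 in adult and -0.23 in fetal tissue, a difference of -0.96 ± 0.10 (adjusted p = 0.0147), or -0.88 without the slide (adjusted p = 0.243). No slide held both tissues.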

How the data were processed

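Whole-tissue RNA was labelled with Cy3 or Cy5 and hybridized to two-colour Agilent arrays. Per the file headers and the submitters' processing notes, Agilent Feature Extraction 9.5.3 was what the authors used to read the spots. The deposited scanner files give linear intensity and a log10 ratio (red over green), with mm8 probe positions. Comparison with the scanner values showed that the series table, as deposited, is on the log2 scale, KO over WT.

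From mean and background intensity, limma 3.58.1 under R 4.3.3 applied normexp (offset 50) and loess within arrays, with control spots at weight 0 and outlier spots left out. Signs were turned by dye, and an array and its swap averaged. Channel levels were scaled between arrays (Aquantile). Probes had to be well above background in all arrays of some group and genotype, and each gene took its brightest such probe (17074 genes of 27566). Gene names were updated through RefSeq (GRCm38.p6); 8126 of 41174 probes kept the name in the file. One limma fit with group terms covered 9 replicates and left 5 residual degrees of freedom, with fetal small intestine pairs 1 and 2, whose difference was below the noise between arrays, as 1 replicate. The 8 genes without a value in pair 1 and the 4 without one in pair 2 were fitted on the other pair. Pairs carry replicate numbers, but deviations of same-numbered pools correlated at -0.133 to 0.152, so no block was used. The steps recovered 96.0% of genes simulated at a log2 change of -1 among 17074, with 13 false calls over all sizes simulated. The simulated pools varied independently, with the same spread per gene in every group, as the fit assumes. They held no pancreas, fat or sex differences between pairs, so the share recovered checks the steps and is not the sensitivity in these arrays.

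Named genes were a fixed panel with the supplied markers, every gene past the threshold with a gene symbol, the leading members of each of 37 lists, genes large in both pairs, genes most different between pairs, and those leading each difference contrast. The part described, its members and the lists were chosen with earlier results of these data known. Alternatives were other background correction, normalization, filter, probe summary, block, prior, the series table, and left-out replicates; fits without the slide named above and without adult colon pair 1 were added after the data were seen.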

Additional observations from a re-analysis of the deposited data

Results flagged for a closer look

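A test of the difference itself set the KO effect in adult small intestine apart from that in adult colon for these named genes, given as small intestine minus colon on the log2 scale. Higher were Sval1 (1.22), Col8a1 (1.17), Tpd52l1 (1.12), Amhr2 (1.06), A4gnt (0.73). Lower were Akr1c21 (-4.25), Mmp7 (-3.77), Lyz1 (-1.82), Defa20 (-1.77), Prm1 (-1.75), Defa1 (-1.64), Krtap19-1 (-1.55), Defa5 (-1.54). For the alpha-defensins among these, the colon ratio may be set near background, as the colon level of Defa22 was. Sval1 was at 0.43 in small intestine, where it did not pass, and at -0.79 in colon. Col8a1, Amhr2 and A4gnt were at -0.08, -0.02 and -0.07 in small intestine and at -1.25, -1.08 and -0.80 in colon. A gene was kept if well above background in some group, and the small intestine levels of these genes are not given here. Their ratios near 0 in small intestine may therefore be set near background. Without adult colon pair 1, Sval1, A4gnt, Lyz1, Defa1 and Defa5 no longer passed, with adjusted p of 0.0705, 0.0832, 0.0906, 0.131 and 0.0906. Without the slide whose profiles went against their labels, Tpd52l1, A4gnt, Defa1 and Defa5 no longer passed, with adjusted p of 0.109, 0.154, 0.105 and 0.0643.

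The same test against fetal small intestine set apart, as adult minus fetal, the following. Higher were ccdc198 (4.09), Rpgrip1 (1.90), Ighg (1.61), Ocel1 (1.41), Apoa4 (1.02), Ywhaz (0.92), Sfrp1 (0.89), Lrrc26 (0.85). Lower were Eif2s3y (-4.36), Ddx3y (-2.78), Prm1 (-1.65), Krtap19-1 (-1.44), Vps39 (-1.23), Rbm45 (-1.19), Xlr3c (-1.15), Defa22 (-0.96). None of these passed without the slide whose profiles went against their labels, where adjusted p ranged from 0.0719 to 0.435. Eif2s3y and Ddx3y are Y-linked, and the sexes of the pools are not given in the sources used here.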

How the results depend on the processing

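The count of genes past the threshold in adult small intestine (68; 28 higher, 40 lower) depended on the processing and on the pools that shared the fit. It was 112 (86 lower) with the scanner's processed signals, 20 (0 higher, 20 lower) with median centring, 38 (7 higher) with the replicate block, 0 (0 higher, 0 lower) for the tissue fitted alone, 501 (203 higher, 298 lower) with every array as an observation and a dye term, 13 (2 higher, 11 lower) with a trended robust prior, 132 (57 higher, 75 lower) with the fetal small intestine pairs separate, and 27 (7 higher, 20 lower) without the slide whose profiles went against their labels. The lower count was 61 with no background subtraction and 66 with the deposited series table, where 18 were higher. Leaving out a replicate, adult colon pair 1 included, gave totals of 34 to 84, with 10 to 22 higher and 24 to 62 lower. Median centring moved the median of all genes to -0.09, and the array and its swap then correlated at -0.29 in pair 1; limma gave 454 genes at an unadjusted p under 0.05 there, and 18 calls were shared. The 10 Paneth genes that fell became 3 with the processed signals, 0 fitted alone, 3 with the trended prior, 4 with the series table and 5 without the slide. The 7 goblet genes became 0 fitted alone, 15 with every array and 0 with the trended prior. Leaving out replicates gave 6 to 9 Paneth and 2 to 5 goblet genes. The difference from adult colon (27) was 11 with processed signals, 14 with median centring, 298 with every array, 6 with the trended prior and 62 with the fetal pairs separate, and 15 to 35 without a replicate. The difference from fetal small intestine (44) was 21 with processed signals, 67 with no background subtraction, 2 with median centring, 7 with the replicate block, 352 with every array, 5 with the trended prior, 84 with the series table, 217 with the fetal pairs separate, 0 without the slide, and 6 to 30 without a replicate. The correlation of the pairs was 0.212 with median centring. Among genes that did not pass, the series table gave 0 for Creb3l1, and the sign turned for Klf4 (-0.064) and Olfm4 (-0.15) with median centring, and for Ang4 (0.35), Hes1 (0.020), Sis (0.019) and Vil1 (0.036) with the replicate block. It also turned when a replicate was left out, with ranges of -0.13 to 0.99 for Clca1, -0.070 to 0.012 for Lgr5, -1.32 to 0.70 for Ang4, -0.31 to 0.023 for Atoh1, -0.42 to 0.040 for Sox9 and -0.098 to 0.074 for Vil1. None of the 50 named genes that passed changed sign under any alternative run, but many lost the threshold. Still past it were 10 with the trended robust prior, 17 with median centring and 28 with the processed signals. With the replicate block 30 were, without adult colon pair 1 27, and with the strict filter all 50. The cause of these changes was not tested. Filters, probe averaging and slide as a random block (correlation 0.10) kept each of these counts within 1.5 times its main value.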
